A study of Mus musculus with 8 samples.

Results

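Liver tumors were set against normal liver within 3 pairs of libraries that carry the same genotype and the same replicate number: wild-type pair 2, wild-type pair 3 and knockout pair 3. These are 6 of the 8 samples of the series; wild-type tumor 1 and knockout tumor 2 have no normal library of their number and entered no pair. The quantity followed was the tumor minus normal difference of log2 CPM, the count scaled to library size, and the genes described first are those that lay on the same side in every pair. All mice were C57BL/6 with a labelled age of 14-16 days, which the labels give for tumor and normal liver alike. Wild-type groups had no stated alteration, and the groups labelled nfib-/- came from Nfib f/f Alb-Cre mice. In these the albumin promoter drives Cre, which is meant to remove the floxed gene in cells that use that promoter, chiefly hepatocytes. How far and in which cells it was removed in these livers was not measured here. No treatment is named, and how the tumors arose and whether a pair came from 1 animal are not given in the sources used here. P-values therefore measure the spread between these libraries only.

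Hepatocytes make plasma proteins, bile acids and cholesterol, burn fatty acids under the nuclear receptor PPAR alpha, and detoxify drugs with cytochrome P450 enzymes that are strongest around the central vein. Liver tumors are known to divide, to re-express fetal genes and often to lose parts of this mature program. Cholesterol synthesis genes answer to SREBP2, a sterol-sensing transcription factor that acts together with the CCAAT-binding factor NF-Y, while late cell cycle genes carry CCAAT boxes and a cell cycle homology region (CHR) read by the DREAM and MuvB complexes.

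Total counts ran from 11912549 to 19965842 over the 6 libraries, and 13321 of the 21878 genes in the count table passed the expression filter. Hepatocyte markers were abundant in all 6 libraries, with Hnf4a, a hepatocyte transcription factor, between 565 and 986 CPM of the library total. Nfib stood at 45.6, 79.5 and 81.2 CPM in wild-type tumor 2, wild-type tumor 3 and knockout tumor 3 and at 88.0, 79.4 and 85.5 CPM in their normal partners. It was thus not lower in the knockout pair than in wild-type pair 3. Gene-level counting cannot show whether an exon is missing, and genotype is given here as labelled. Unless stated otherwise, values are CPM after scaling with TMM (trimmed mean of M values) factors, always in the order wild-type pair 2, wild-type pair 3, knockout pair 3.

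The size of the tumor difference varied widely between pairs. In wild-type pair 2 the central 90% of genes lay between -2.44 and 1.57 on the log2 scale, with 1547 genes at least 2-fold higher in tumor and 2333 at least 2-fold lower. In wild-type pair 3 the same range was -0.34 to 0.83, with 485 genes higher and 46 lower by that margin, and in knockout pair 3 it was -0.52 to 0.60, with 224 and 225 genes. Across genes, which are not independent replicates, tumor and normal correlated at r = 0.857 in wild-type pair 2, 0.984 in wild-type pair 3 and 0.983 in knockout pair 3. Wild-type pair 2 also differed in Y-linked transcripts: Ddx3y stood at 59.9 CPM of the library total in its normal and 5.31 in its tumor, and Eif2s3y at 87.6 and 4.26, against at most 0.127 for either gene in the other 4 paired libraries. Wild-type tumor 2 and wild-type normal 2 share a number, and these values leave it unknown whether they came from 1 animal. The part of this difference in the results of that pair was not tested.

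**Figure D1:**
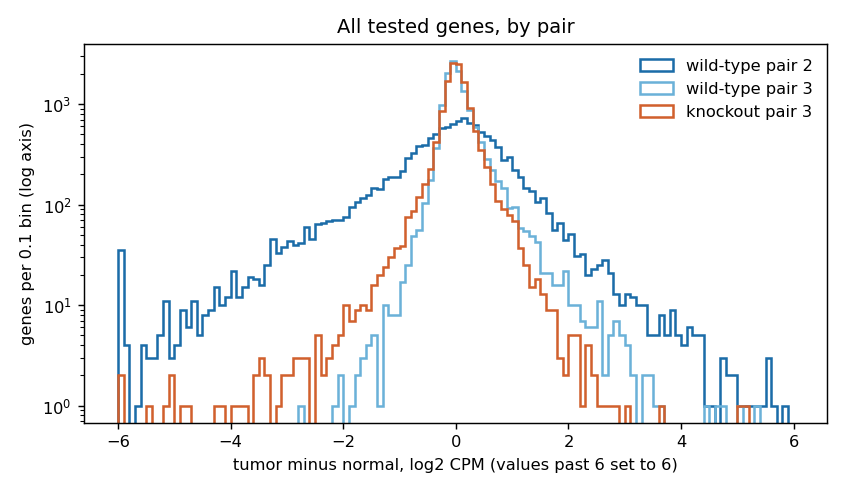
Histogram of the tumor minus normal difference (x axis, log2 CPM, values past 6 set to 6) of all 13321 tested genes, with genes per bin on a log y axis and 1 line per pair. Wild-type pair 2 spreads widest, with a standard deviation across genes of 1.28, and the other lines stay closer to 0.

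In bulk liver a lower level of a cell type's transcripts cannot be told apart from fewer cells of that type, and several cell type lists differed most in 1 pair. Markers of sinusoidal and capillary endothelium, all 19 tested, had a summed level of 362 CPM in wild-type tumor 2 against 1367 CPM in its normal, with 0 of 19 higher in tumor and a median difference of -2.46. In the other pairs the sums were 1433 against 1247 CPM and 768 against 720 CPM. Cholangiocyte markers were higher in 12 of 12 members in wild-type pair 3, with a median of 1.13, where their sum was 361 CPM in tumor and 222 CPM in normal, against medians of -1.91 and -0.05 in wild-type pair 2 and knockout pair 3. Their sum in wild-type pair 2, 762 CPM in tumor and 739 CPM in normal, did not follow its median. Stellate cell and matrix markers were higher in 20 of 22 in wild-type pair 3 (median 0.69) and had medians of -0.56 and -0.08 elsewhere, with sums of 1802 and 1801 CPM in tumor and normal of wild-type pair 2. Erythroid markers summed to 660, 803 and 341 CPM in the tumors and 2212, 356 and 351 CPM in the normals. Acta1, skeletal muscle actin, reached 233 CPM in knockout normal 3 and at most 4.43 CPM in the other 5, so that the muscle list of 2 tested genes had a median of -7.38 in that pair. No endothelial, stellate, cholangiocyte or erythroid marker that was tested was at 0 in any library. The part of these cells in the results below was not tested, and the counts below rest on the same direction in every pair.

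A small set of genes was higher in tumor by at least 2-fold in every pair, and hardly any was lower by that much. Of all tested genes, 1970 (14.8%) were higher in tumor in all 3 pairs and 1807 (13.6%) were lower. With only 3 pairs, signs agree for a sizeable share of genes even where no change is common, so these counts alone do not show a shared change. Only 100 (0.751%) were at least 1.5-fold higher each time and 19 (0.143%) at least 1.5-fold lower. At 2-fold the counts were 31 (0.233%) higher and 3 (0.0225%) lower. Under edgeR's quasi-likelihood test over the 6 libraries, with genotype in the model, 0 genes passed in either direction at an adjusted p of 0.05, the smallest adjusted p was 0.958 and 69 genes had an unadjusted p under 0.05. With the pair as a replicate block edgeR again called 0 genes (smallest adjusted p 0.847, 214 unadjusted), and DESeq2 with the pair as a block called 9 genes higher (0.0676% of those tested) and 0 lower, with 313 genes at an unadjusted p under 0.05. DESeq2 without the block and limma-voom called 0. Those 9 calls are the only genes that passed a test over all 3 pairs, and they came from an alternative chosen after seeing the data.

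**Figure D2:**
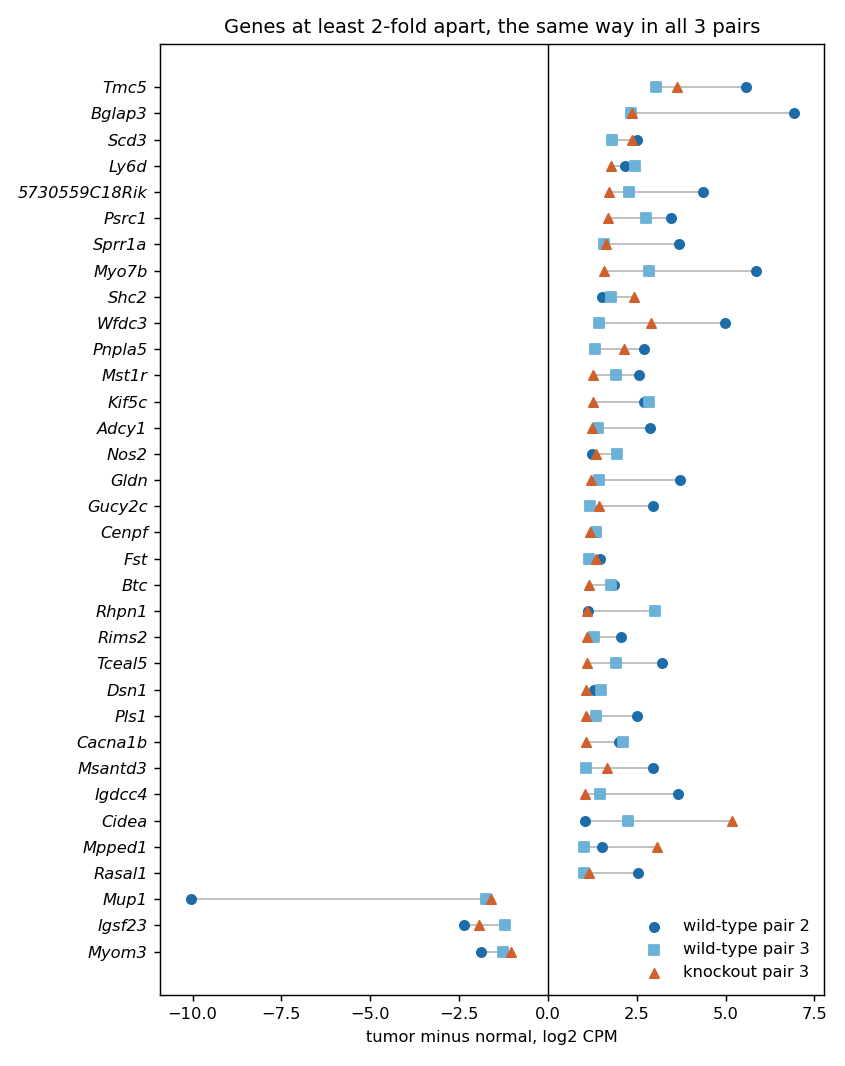
Tumor minus normal difference (x axis, log2 CPM) in each pair for the 31 genes at least 2-fold higher and the 3 genes at least 2-fold lower in tumor in every pair. Each marker is 1 pair and the grey line spans the pairs; the values chose the genes, and Ly6d, Fst and Cenpf have the tightest spread among the genes described in the text.

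Ly6d, a small GPI-anchored surface protein of the Ly6 family, was higher in tumor with no overlap between the groups. It stood at 88.5, 30.7 and 49.4 CPM in the tumors and 19.6, 5.50 and 14.2 CPM in the normals. Every tumor lay above every normal, which held in this direction for 322 genes (2.42%) of all tested. The within-pair differences were 2.17, 2.45 and 1.79, a mean of 2.14 ± 0.33 (SD, n = 3 pairs), and the fold was 4.51 (95% counting interval 3.97 to 5.15), 5.57 (4.46 to 7.02) and 3.47 (2.99 to 4.03). DESeq2 with the pair as a block gave an adjusted p of 1.18e-08, and edgeR with the block one of 0.847. In tumors outside the pairs, on a scale set over all 8 libraries, it stood at 380.3 CPM in wild-type tumor 1 and 47.2 CPM in knockout tumor 2, both above every normal.

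Bglap3, a member of the osteocalcin gene cluster, stood at 137, 4.62 and 52.9 CPM in the tumors and 0.998, 0.820 and 10.1 CPM in the normals. Its tumor value in wild-type pair 3 lay below the knockout normal, so the groups overlap although each pair had the same direction. The folds were 137 (81.5 to 251), 5.64 (3.16 to 10.8) and 5.23 (4.42 to 6.22). DESeq2 with the pair block gave an adjusted p of 0.00798. In the left-out tumors, on the scale over 8 libraries, Bglap3 stood at 1.26 CPM in wild-type tumor 1 and 3.27 CPM in knockout tumor 2. Both lay under the knockout normal, at 10.1 CPM on that scale. Bglap3 has near-identical neighbours in its cluster, and how reads that fit several of them were counted is not given in the sources used here.

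Psrc1, a microtubule-binding protein of the mitotic spindle, stood at 30.5, 1.91 and 6.22 CPM in tumor and 2.64, 0.176 and 1.85 CPM in normal. The normal of wild-type pair 3 held 3 counts, and the fold there was 10.9 with an interval of 3.39 to 55.6, next to 11.6 (8.28 to 16.6) and 3.36 (2.22 to 5.23). Kif5c, a kinesin heavy chain best known from neurons, stood at 36.7, 3.70 and 7.97 CPM against 5.56, 0.410 and 3.21 CPM. Both genes passed in DESeq2 with the pair block, at adjusted p of 0.00121 and 0.00669, and both left-out tumors lay above every normal for both. Low values in wild-type pair 3 and high values in wild-type tumor 2 mark all of Bglap3, Psrc1 and Kif5c.

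Tmc5, a transmembrane channel-like protein, stood at 53.4, 1.36 and 1.39 CPM in tumor, above the 0.998 and 0.0585 CPM of the wild-type normals and a count of 0 in the knockout normal. The last fold is a bound, at least 7.50-fold against a floor of 3 counts, and that of wild-type pair 3 rests on 22 counts against 1, 23.1-fold with an interval of 3.74 to 955. Myo7b, a myosin of the intestinal brush border, stood at 44.0, 1.60 and 5.55 CPM against 0.642, 0.117 and 1.79 CPM. Shc2, an adaptor of receptor tyrosine kinases, stood at 22.4, 1.91 and 6.76 CPM against 7.77, 0.468 and 1.17 CPM, and its difference was smallest in wild-type pair 2, at 1.51. Wfdc3, a whey acidic protein family member, held 6 counts against 1 in wild-type pair 3, and its interval there, 0.766 to 290, includes 1. All of these passed in DESeq2 with the pair block, with adjusted p of 3.11e-10, 0.00813, 0.0151 and 1.92e-05, as did 5730559C18Rik at 0.000605. Where 1 side holds almost no counts, the fitted fold depends on the prior count and the CPM values are the safer description. For Tmc5, Myo7b, Shc2 and Wfdc3 the left-out tumors were not both above every normal. Knockout tumor 2 held Tmc5 at 0.0554 CPM on the scale over 8 libraries, under wild-type normal 2 at 0.999 CPM.

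**Figure D3:**
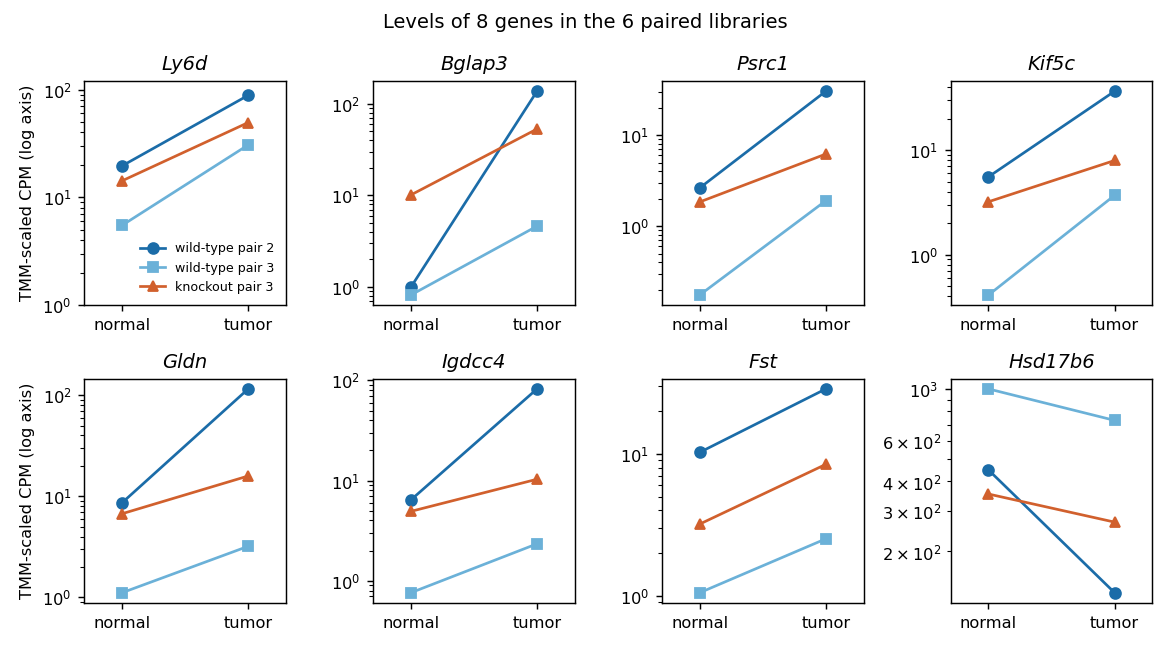
TMM-scaled CPM (log y axis) of 8 genes in normal and tumor, with 1 line per pair. Each line for Ly6d, Bglap3, Psrc1, Kif5c, Gldn, Igdcc4 and Fst goes up and each line for Hsd17b6 goes down, while the level of 1 pair often exceeds both values of another.

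Other genes among the 31 passed no test. Fst, the activin inhibitor follistatin, differed by a similar amount in every pair, with 28.7, 2.53 and 8.45 CPM against 10.3, 1.05 and 3.21 CPM and folds of 2.80 (2.32 to 3.39), 2.40 (1.35 to 4.43) and 2.63 (1.90 to 3.70). Adcy1, a calmodulin-stimulated adenylyl cyclase, stood at 30.2, 5.36 and 19.7 CPM against 3.99, 1.93 and 8.2 CPM. Gucy2c, the intestinal receptor for guanylin, was highest in the knockout pair, at 21.1 CPM against 7.77, next to 6.94 against 0.784 and 7.21 against 3.10 CPM. Gldn, gliomedin, and Igdcc4, an immunoglobulin superfamily protein, were dominated by wild-type tumor 2, at 115 and 82.2 CPM against 8.63 and 6.42 in its normal. Mst1r, the receptor for macrophage-stimulating protein, stood at 11.5, 2.77 and 3.62 CPM against 1.85, 0.644 and 1.42 CPM, with no overlap between the groups. Mst1r was named after its values were seen.

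The 2-fold sets were low in level and led by 1 pair. Mean levels of the 31 higher genes ran from 0.590 to 34.7 CPM, with 15 of them under 5 CPM, and in 21 of the 31 the largest difference came from wild-type pair 2. Counting intervals for a single pair lay above 1 in all 3 pairs for 24 of the 31, where 200 genes (1.5%) of all tested had such intervals on the higher side and 329 (2.47%) on the lower side. Such intervals compare libraries, not conditions, and cover counting error only. For the 31 they rest on the same counts that chose the genes and give no separate support. The groups did not overlap for 3 of the 31: Ly6d, Mst1r and Tmc5. Around the threshold, Rasal1 at 1.003 and Mpped1 at 1.006 were just inside in their smallest difference, and Arnt2 and Npc1l1, both at 0.98, just outside. The tumors outside the pairs were both above every normal for 10 of the 31 (32.3%) and for 1235 (9.27%) of all tested genes, a comparison that uses the same normal libraries as the choice of the 31.

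On the lower side the 2-fold genes were Mup1, Igsf23 and Myom3. Both left-out tumors lay below every normal for 0 of these 3 and for 1218 (9.14%) of all tested genes. Igsf23, an immunoglobulin superfamily protein, stood at 0.220, 0.801 and 0.362 CPM in tumor and 1.64, 1.99 and 1.73 CPM in normal. The groups did not overlap, which held in this direction for 275 genes (2.06%) of all tested. In the left-out tumors, on the scale over 8 libraries, Igsf23 stood at 0.780 CPM in wild-type tumor 1 and 2.27 CPM in knockout tumor 2. The latter value lay above every normal. Mup1, a major urinary protein that male mice make in large amounts, stood at 0.276, 2.22 and 0.181 CPM in the tumors and 424, 7.67 and 0.802 CPM in the normals. It belongs to a family of near-identical copies whose reads may be shared, and the Y-linked difference given above lies in the same pair. Myom3, a muscle sarcomere protein, was at most 3.89 CPM in any of the 6, in the normal library that held muscle transcripts. In wild-type pair 3 it held 2 counts in tumor and 8 in normal, and its counting interval there, 0.0272 to 1.32, includes 1. On the scale over 8 libraries Myom3 stood at 1.32 CPM in wild-type tumor 1 and 19.6 CPM in knockout tumor 2, the latter above every normal.

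Apart from Mup1, lower genes with a mean of at least 5 CPM stayed under 2-fold in at least 1 pair, and some differed by like amounts in each. Sox12, a transcription factor of the SoxC group, stood at 4.57, 3.94 and 3.62 CPM in tumor and 8.06, 7.26 and 6.35 CPM in normal. Its differences of -0.80, -0.86 and -0.79 gave a mean of -0.82 ± 0.04 (SD, n = 3 pairs), with no overlap between groups, an edgeR log2 fold change of -0.83 ± 0.23 (SE) and an adjusted p of 0.958. Hsd17b6, a steroid dehydrogenase of liver, stood at 133, 732 and 267 CPM against 448, 999.9 and 353 CPM. Both left-out tumors had Sox12 at 3.48 and 4.48 CPM, on the scale over 8 libraries. Sox12 was the more even of the pair of genes, and Hsd17b6 the more abundant.

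Cholesterol synthesis was the list with the largest share of members higher in every pair, 15 of 20 (75.0%, against 14.8% of all tested genes), and 0 of 20 were lower in every pair. The list medians were 1.32, 0.11 and 0.51 on the log2 scale, so the shift in wild-type pair 3 was small. No member passed edgeR or DESeq2 with the pair block. HMG-CoA synthase 1, encoded by Hmgcs1, stood at 488, 379 and 226 CPM in tumor and 166, 332 and 151 CPM in normal. Tumor was above normal in each pair, but the groups overlap.

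Farther down the pathway, Fdps, which makes farnesyl diphosphate, stood at 278, 145 and 144 CPM against 84.3, 123 and 81.2 CPM. Dhcr7, which makes cholesterol from its last precursor, stood at 124, 77.4 and 115 CPM against 52.0, 59.2 and 71.3 CPM. With Pmvk, at 31.9, 36.2 and 44.3 against 24.2, 31.7 and 30.6 CPM, these were the 3 members for which every tumor lay above every normal. Sqle, which oxidizes squalene, showed the widest span, with differences of 2.61, 0.06 and 1.22. Single-pair counting intervals lay above 1 in all 3 pairs for 9 of the 20, against 1.5% of all tested genes. The sterol uptake list had 2 members higher and 1 lower in every pair of 12, and fatty acid synthesis 3 and 1 of 16.

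**Figure D4:**
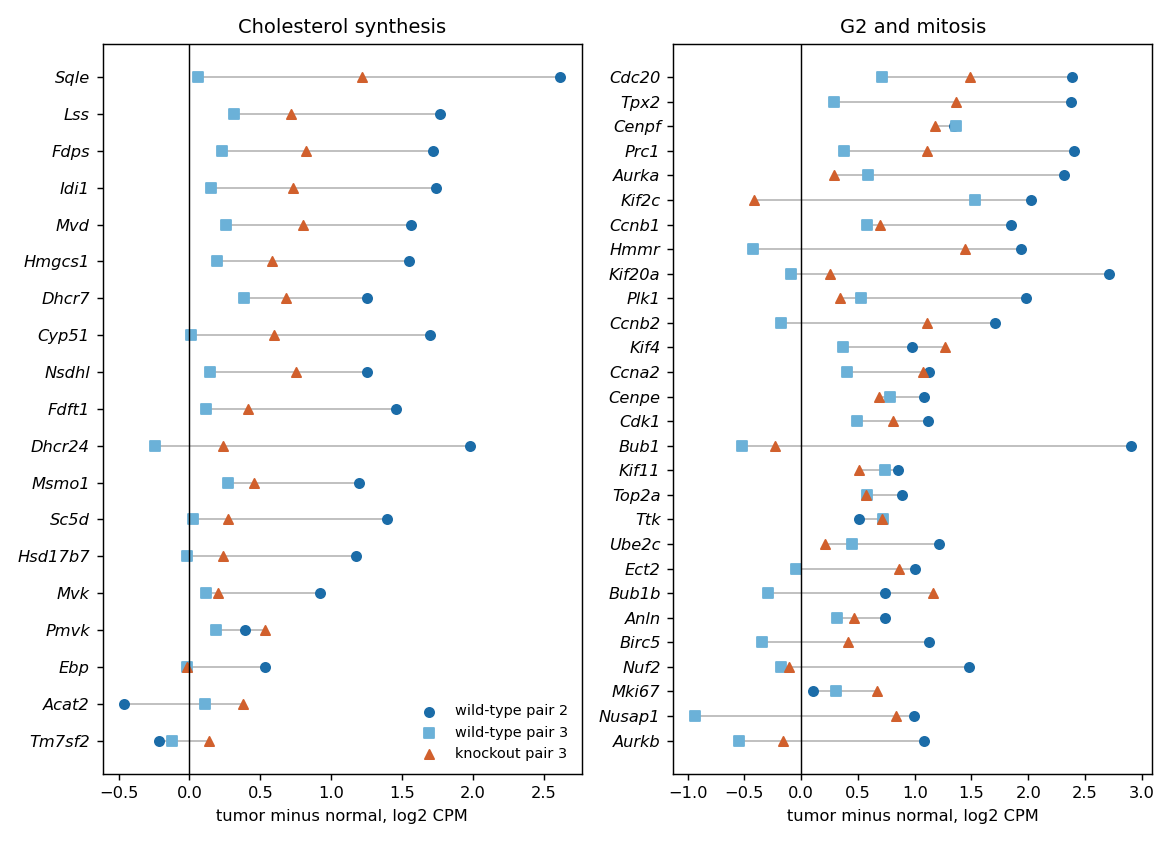
Tumor minus normal difference (x axis, log2 CPM) of 19 of the 20 tested members of the cholesterol synthesis list and all of the G2 and mitosis list (28 genes), 1 marker per pair, sorted by the mean over pairs. Members gather right of 0, with wild-type pair 2 farthest out in most.

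Genes of G2 and mitosis were the next list, with 17 of 28 members higher in every pair and 0 lower, and medians of 1.17, 0.37 and 0.69. Over all tested genes 14.8% were higher and 13.6% lower in every pair. Levels of the mitosis genes were low. Cdc20, the activator of the anaphase-promoting complex, stood at 12.1, 2.09 and 3.68 CPM in tumor and 2.21, 1.23 and 1.23 CPM in normal. Cenpf, a kinetochore protein, stood at 5.62, 1.85 and 2.54 CPM against 2.14, 0.644 and 1.05 CPM, with even differences of 1.35, 1.36 and 1.18. Topoisomerase 2 alpha, encoded by Top2a, stood at 13.8, 5.24 and 8.03 CPM against 7.41, 3.45 and 5.37 CPM. Counting intervals lay above 1 in all 3 pairs for 2 of the 28, Cenpf and Top2a, against 1.5% of all tested genes. Mki67, the Ki-67 antigen, was higher in every pair by 0.11, 0.31 and 0.67, and with library totals in place of TMM its difference in wild-type pair 2 was -0.26. DNA replication genes were higher in every pair in 11 of 24 and lower in 2, with medians of 0.56, 0.25 and 0.26. Counting intervals of that list lay above 1 in all 3 pairs for 0 of the 24.

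Promoter windows of both lists are shown because most members lay on the same side of 0 in every pair and the lists differ in the short elements they hold. RefSeq promoters on GRCm38.p6, from 250 bases before to 50 after a start, were found for 10263 of the 13321 tested genes. Motifs were searched on both strands: the CCAAT box as CCAAT or ATTGG, the CHR as TTTGAA or TTCAAA, and the sterol regulatory element core as CACCCCAC or GTGGGGTG. None of these strings contains another. A CCAAT box was present in at least 1 window for 42.5% of tested genes, for 14 of 15 cholesterol synthesis genes with a promoter and for 19 of 24 mitosis genes. The CHR string was present for 14.7% of tested genes, for 1 of 15 cholesterol genes and for 18 of 24 mitosis genes. The sterol core was present for 3.96%, 2 of 15 and 1 of 24. Among the genes higher in every pair over the whole table the shares were 44.5%, 14.8% and 3.53%, close to those of all tested genes.

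The windows below read 5′ to 3′ on the gene's strand, with each motif match in capitals. Hmgcs1 and Mvd, the mevalonate diphosphate decarboxylase gene, stand for the sterol list, Cdc20 and Cenpf for mitosis. Psrc1 is shown as a spindle gene of the 2-fold set and does not represent it: of the 20 genes among the 31 with a promoter, 7 (35.0%) held a CCAAT box, 2 a CHR string and 0 a sterol core. Psrc1 has 2 RefSeq windows, of which the upstream one is printed.
Hmgcs1, chr13:119690101-119690400, plus strand: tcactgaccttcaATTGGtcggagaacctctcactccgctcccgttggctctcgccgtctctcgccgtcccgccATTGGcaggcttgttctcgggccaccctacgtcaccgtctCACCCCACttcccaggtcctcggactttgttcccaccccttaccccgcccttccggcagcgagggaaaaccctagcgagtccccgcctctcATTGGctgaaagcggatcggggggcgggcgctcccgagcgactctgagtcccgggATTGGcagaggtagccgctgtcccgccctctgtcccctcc
Mvd, chr8:122443373-122443672, minus strand: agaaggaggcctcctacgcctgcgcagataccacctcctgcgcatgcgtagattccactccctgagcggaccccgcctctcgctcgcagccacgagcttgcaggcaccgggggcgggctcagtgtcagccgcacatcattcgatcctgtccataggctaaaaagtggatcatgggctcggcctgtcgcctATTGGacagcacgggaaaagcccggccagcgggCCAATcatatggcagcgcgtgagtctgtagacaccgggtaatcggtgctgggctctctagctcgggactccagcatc
Cdc20, chr4:118437294-118437593, minus strand: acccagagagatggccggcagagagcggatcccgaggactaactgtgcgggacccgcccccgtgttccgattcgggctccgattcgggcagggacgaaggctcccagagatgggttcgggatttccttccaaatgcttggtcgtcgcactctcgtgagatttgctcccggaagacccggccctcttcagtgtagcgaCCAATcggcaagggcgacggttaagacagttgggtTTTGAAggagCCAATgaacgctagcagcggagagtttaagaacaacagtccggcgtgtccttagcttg
Cenpf, chr1:189688037-189688336, minus strand: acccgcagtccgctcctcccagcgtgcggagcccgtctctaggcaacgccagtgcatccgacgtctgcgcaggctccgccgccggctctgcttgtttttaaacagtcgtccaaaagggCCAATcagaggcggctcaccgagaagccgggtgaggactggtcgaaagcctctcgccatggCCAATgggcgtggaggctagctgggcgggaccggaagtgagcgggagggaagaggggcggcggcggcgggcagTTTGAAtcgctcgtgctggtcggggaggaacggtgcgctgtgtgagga
Psrc1, chr3:108383554-108383853, plus strand: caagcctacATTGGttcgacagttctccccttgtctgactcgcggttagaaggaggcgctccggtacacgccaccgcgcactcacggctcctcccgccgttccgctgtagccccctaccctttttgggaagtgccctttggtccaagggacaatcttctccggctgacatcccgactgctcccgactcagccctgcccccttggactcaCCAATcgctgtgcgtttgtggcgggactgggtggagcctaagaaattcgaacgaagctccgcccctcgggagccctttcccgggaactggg
The Hmgcs1 window holds 4 CCAAT boxes and 1 sterol core and no CHR string. Those of Cdc20 and Cenpf hold 2 CCAAT boxes and 1 CHR string each, whereas the Mvd and Psrc1 windows hold 2 CCAAT boxes and neither of the other strings. The other Psrc1 window holds 1 CCAAT box. A match describes letters in these windows and not binding in these livers.

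Oncofetal and tumor markers were higher in every pair in 13 of 24 and lower in 1, with medians of 1.94, 0.59 and 0.42. Over all tested genes 14.8% were higher and 13.6% lower in every pair. Cd63, a tetraspanin of late endosomes, stood at 255, 16.1 and 34.1 CPM in tumor and 33.1, 10.4 and 13.9 CPM in normal. Prom1, a progenitor marker that is also on the cholangiocyte list, stood at 52.5, 15.5 and 24.8 CPM against 13.1, 10.4 and 14.2 CPM, with no overlap. The cholangiocyte list had its own shift in wild-type pair 3, given above. Gpc3, the oncofetal glypican 3, differed by 0.08, 1.39 and 1.25, and by -0.29 in wild-type pair 2 with library totals in place of TMM.

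The classical fetal transcripts were not shared. Afp, alpha-fetoprotein, stood at 2324 CPM in wild-type tumor 2 against 12.7 in its normal, 4.50 against 1.11 in wild-type pair 3, and 17.1 against 17.5 in knockout pair 3. Igf2, the fetal growth factor, stood at 5706 against 9.91, 3.82 against 4.16, and 188 against 41.1 CPM. Both were highest in wild-type tumor 2 among the paired tumors, and each differed in sign between pairs.

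On the lower side, 13 of 21 PPAR alpha targets were lower in every pair and 1 was higher, with medians of -0.83, -0.20 and -0.13; 13.6% of all tested genes were lower in every pair. Cyp4a14, a fatty acid hydroxylase and a sensitive PPAR alpha target, stood at 2.76, 2276 and 576 CPM in tumor and 39.7, 3304 and 846 CPM in normal. Levels differed widely between pairs, and the differences in wild-type pair 3 and knockout pair 3 were alike, at -0.54 and -0.55. Its relative Cyp4a10 stood at 2.43, 1399.9 and 251 CPM against 80.8, 1688 and 356 CPM. Cyp4a genes are close copies whose reads may be shared. Pdk4, which turns off pyruvate oxidation, differed by -2.08, -0.47 and -0.82, and Fabp1, the liver fatty acid binding protein, by -2.26, -0.17 and -0.19. The member higher in every pair was Fgf21, the fasting hormone, at 6.28, 14.7 and 3.50 CPM against 1.21, 14.2 and 1.36 CPM.

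Most bile acid genes were lower in tumor in every pair, among them Slc10a1, the sodium-dependent bile acid carrier, at 15.7, 569 and 663 CPM against 552, 632 and 785 CPM, and Baat, which conjugates bile acids, at 65.9, 186 and 178 CPM against 189, 194 and 204 CPM. With library totals in place of TMM the Baat difference in wild-type pair 3, -0.06, was 0.02. In all, 13 of 19 were lower in every pair and 2 higher, beside 13.6% lower and 14.8% higher over all tested genes. The list medians were -1.52, -0.12 and -0.09. The 2 higher genes were Cyp8b1, which sets the share of cholic acid, and Cyp7a1, the rate-limiting enzyme of the pathway. Cyp8b1 stood at 175, 113 and 61.7 CPM against 115, 66.6 and 32.3 CPM, with differences of 0.60, 0.76 and 0.93, and Cyp7a1 differed by 1.35, 0.39 and 0.07. Both lay on the opposite side of 0 from most of their list, and Cyp7b1, an enzyme of the alternative synthesis route, was mixed at -3.28, 0.14 and 0.15. With library totals 9 in place of 13 members of this list were lower in every pair.

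Drug-metabolizing P450 genes were lower in every pair in 12 of 22 and higher in 2 (medians -1.67, -0.16 and -0.23). Pericentral and beta-catenin targets were lower in 11 of 19 and higher in 1 (medians -2.65, -0.05 and -0.20). Over all tested genes 13.6% were lower and 14.8% higher in every pair. The lists share Cyp2e1 and Cyp1a2. Cyp2e1, the ethanol-oxidizing P450 of pericentral hepatocytes, stood at 68.0, 4891 and 5276 CPM against 2009.9, 5734 and 7128 CPM. Cyp2c37, a P450 of the 2C family with close copies, differed by -3.48, -0.29 and -0.60. Glul, glutamine synthetase, which marks the hepatocytes next to the central vein, stood at 49.1, 1129 and 1095 CPM against 239.7, 1274 and 1311 CPM. Nearly all of these large shifts lie in wild-type pair 2, and under library totals 8 members of each list were lower in every pair. The P450 list was not uniformly lower in wild-type pair 2, where 8 of 22 were higher in tumor. Among them were Cyp2b10, at 239 CPM in tumor against 0.499 in normal, and Cyp2b9, at 308 against 11.2 CPM. Both differed by at most -0.37 in the other pairs.

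Urea cycle genes, which the series title concerns, were lower in every pair in 2 of 8 and higher in 0. That is 25.0% lower, against 13.6% of all tested genes, and the medians were -1.60, 0.03 and -0.13. Otc, ornithine transcarbamylase, stood at 189.5, 533 and 499.9 CPM against 615, 555 and 579 CPM, with no overlap; its difference in wild-type pair 3, -0.06, was 0.02 with library totals. Cps1, which carries out the first step, stood at 1816, 2552 and 5608 CPM against 3019.5, 2503 and 6196 CPM. Its small differences in wild-type pair 3 and knockout pair 3 had opposite signs.

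Other lists were weaker or mixed, beside 14.8% of all tested genes higher and 13.6% lower in every pair. Acute phase genes were lower in every pair in 8 of 20 and higher in 2, or 6 and 4 with library totals. Saa1 stood at 4.85, 37.0 and 121 CPM against 70.6, 46.7 and 162 CPM, while Apcs of the same list was mixed at 4.20, -0.09 and 0.05. Gluconeogenesis and glycogen genes were lower in 6 of 15 (4 with library totals) and higher in 1. Amino acid breakdown genes were lower in 11 of 33 (5 with library totals) and higher in 1, and clock genes lower in 7 of 20 (5 with library totals) and higher in 1. Interferon-induced genes were higher in every pair in 10 of 24 and lower in 3, with medians of -0.19, 0.17 and 0.14. Ifit1 stood at 9.87, 13.4 and 40.4 CPM against 7.06, 8.26 and 24.6 CPM, and Isg15 at 19.3, 17.8 and 35.2 CPM against 11.3, 14.1 and 20.9 CPM. Among the 11 mixed members, Rsad2 differed by -0.98, 0.77 and 1.77 and Oasl2 by -0.97, -0.19 and 0.78. Antigen presentation genes were higher in 8 of 17 and lower in 2, or 3 and 2 with library totals. The p53 targets were higher in 8 of 21 and lower in 1.

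**Figure D5:**
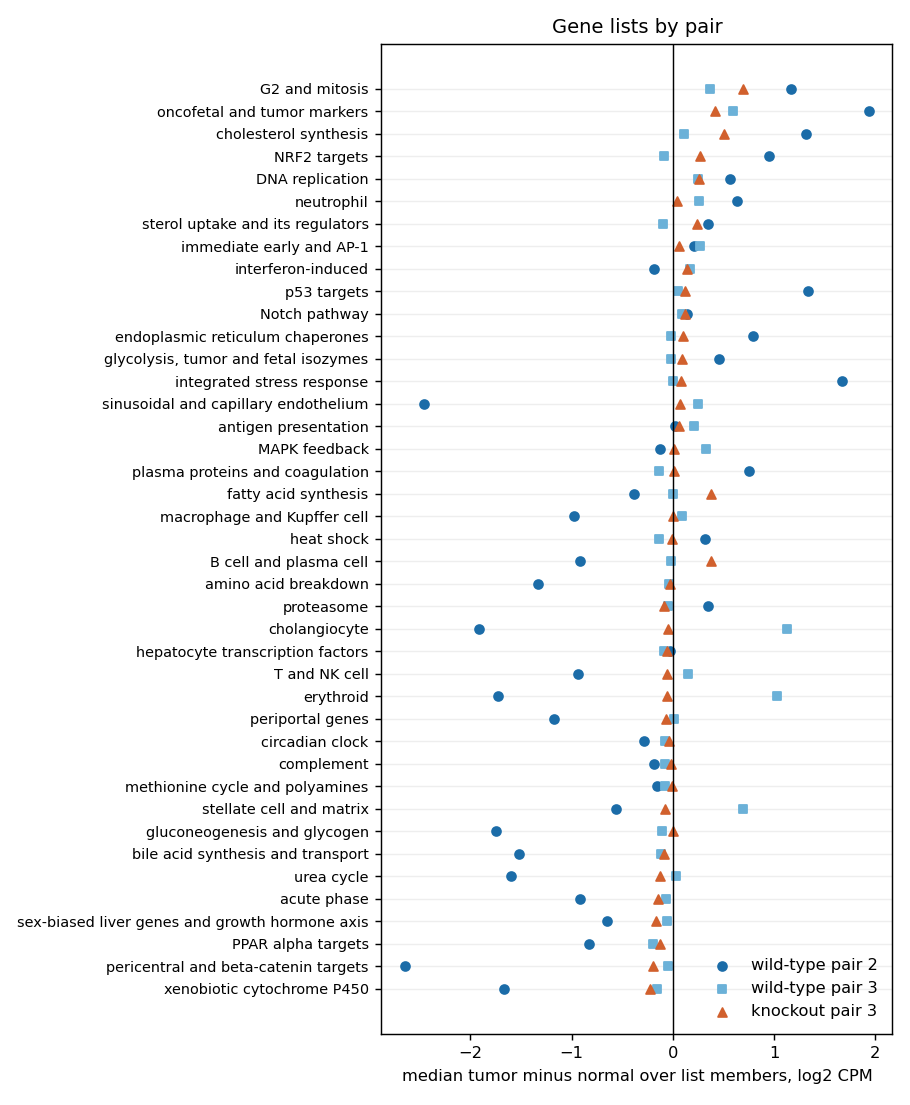
Median tumor minus normal difference over the members of each list with at least 8 tested genes (x axis, log2 CPM), 1 marker per pair, sorted by the middle value of the pairs. Cholesterol synthesis and G2 and mitosis lie right of 0 in every pair and PPAR alpha targets left of it, while endothelium, cholangiocyte and erythroid lists lie far from 0 in wild-type pair 2 and on the other side of 0 in wild-type pair 3.

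The remaining lists had these counts of members higher and lower in every pair. Over all tested genes the shares were 14.8% higher and 13.6% lower. Several lists lay near or under them, such as glycolysis isozymes (14.3% higher) and plasma proteins (11.5% lower). NRF2 targets had 6 and 3 of 20, immediate early genes 6 and 2 of 18, integrated stress response genes 5 and 3 of 18, and endoplasmic reticulum chaperones 5 and 1 of 18, where library totals gave 8 higher and DESeq2 size factors 2. MAPK feedback genes had 3 and 1 of 14, glycolysis isozymes 2 and 1 of 14, heat shock genes 0 and 2 of 13, and Notch pathway genes 1 and 1 of 14. Periportal genes had 1 and 3 of 14, plasma proteins 2 and 3 of 26, complement 0 and 5 of 20, hepatocyte transcription factors 0 and 5 of 21, methionine cycle and polyamine genes 1 and 3 of 17, and the proteasome 0 and 3 of 31. Sex-biased and growth hormone genes had 2 and 6 of 23, beside the Y-linked difference of wild-type pair 2. Among cell types, macrophages had 3 and 4 of 18, neutrophils 4 and 1 of 12, T and NK cells 1 and 3 of 14, B cells 1 and 1 of 10, endothelium 0 and 1 of 19, stellate cells 4 and 0 of 22, cholangiocytes 2 and 0 of 12, erythroid genes 0 and 0 of 8 and adipocytes 0 and 0 of 6. Skeletal muscle had 0 and 1 of 2, squamous epithelium 1 and 0 of 2 and exocrine pancreas 1 and 0 of 2.

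The authors deposited a table for each pair that sets 1 library against 1 library and lists genes past a 2-fold change and an unadjusted p of 0.05. The authors' deposited tables hold 411 genes higher and 590 lower for wild-type pair 2, 257 and 13 for wild-type pair 3, and 101 and 216 for knockout pair 3. In all 3 of the authors' deposited tables there were 28 genes, of which 9 were higher each time (Adcy1, Bglap3, Gldn, Gucy2c, Kif5c, Ly6d, Myo7b, Psrc1 and Tmc5), 0 were lower each time and 19 changed sign between tables. These 9 genes also belong to the 31 described above, which come from the same libraries. The authors' deposited table gives Ly6d log2 ratios of 2.20, 2.46 and 1.79 in the same order, with unadjusted p of 0.0202, 1.01e-20 and 4.81e-12. A p from 1 library against 1 library has no replicate behind it.

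Whether the 2 genotypes differ in the tumor effect was tested as an interaction in edgeR, in which 0 genes passed and 12 had an unadjusted p under 0.05. The knockout side of that test is 1 pair. For a single gene the exact sign-flip test over 3 pairs cannot give a two-sided p below 0.25. Leaving out wild-type pair 2, edgeR called 6 genes higher and 0 lower over the other pairs: Gm42031, Bglap3, Col5a2, Gpc3, Ly6d and Cyp8b1. In that fit each genotype is 1 pair, so the genotype term is also the pair term, and few libraries remain to estimate the spread. Of the genes called there, Gm42031 stood at 0.331 CPM in wild-type tumor 2 against 11.5 in its normal. In the other pairs it stood at 18.9 against 0.585 and 66.5 against 1.91 CPM. Its direction thus turned between pairs, and it was named after its values were seen, as was Col5a2, a fibrillar collagen gene at 31.6, 30.7 and 81.1 CPM in tumor and 31.8, 9.78 and 20.9 CPM in normal.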

How the data were processed

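Poly(A) RNA of 8 liver samples was sequenced, and 6 of them formed 3 pairs by genotype and replicate number. The deposited table holds raw counts per gene made by the authors, and the deposited FPKM table was used for an alternative. In the authors' deposited tables of 1 library against 1 library the values used were the log2 ratio, the p-value and the adjusted p-value. Per the submitters' processing notes Bowtie 0.12.2 and the builds mm8 and mm9 were involved, with no role given. The counting method and the tool behind those p-values are not given in the sources used here. A further 16 columns of per-library values were not used.

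Counts were scaled with TMM factors in edgeR 4.0.16 (R 4.3.3), with the edgeR filter at a minimum count of 10 and a prior count of 2 for log2 CPM. Tumor was tested with genotype in a robust quasi-likelihood fit, with Benjamini-Hochberg adjustment over 13321 genes. For the within-pair differences the libraries were paired by replicate number, while the main edgeR fit held genotype and no pair term. Deviations from the tissue means correlated at 0.25, 0.274 and 0.447 within numbers, and each tumor correlated best with its own number. Genotype and Y-linked transcripts also differ between pairs, so these correlations cannot show that a pair is 1 animal. Whether a number marks 1 animal is not given in the sources used here, and Y-linked transcripts differ within wild-type pair 2. DESeq2 1.42.0 and limma-voom (limma 3.58.1), other scalings and filters, and leaving out each pair were alternatives. Counting intervals are exact Clopper-Pearson intervals at 95% on the 2 counts of a pair. They cover counting error only.

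The members, the 45 gene lists with tested genes and the rule for named genes were chosen with earlier results of these data known. The rule took Nfib, 15 genes per direction by the smallest within-pair difference at a mean of at least 5 CPM, up to 5 members of each list with at least 40% of 8 or more tested members moving 1 way, and the genes of the deposited tables. Other names in the text follow from counts or roles and were chosen after their values were seen, among them Mst1r, Igsf23, Myom3, Gm42031, Col5a2 and the members of the urea cycle, sterol and bile acid lists that show each step. Values of some list members are not reported here singly. The code was tested on simulated counts.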

Additional observations from a re-analysis of the deposited data

Results flagged for a closer look

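Afp was higher in tumor in both wild-type pairs, by 7.50 and 1.90 on the log2 scale, and differed by -0.03 in the knockout pair, a difference of -4.73 between the knockout value and the mean of the wild-type values. B cell and plasma cell markers had medians of -0.92 and -0.02 in the wild-type pairs and 0.38 in the knockout pair, a difference of 0.85. The difference of the B cell and plasma cell list was not tested. Afp was among the genes of the edgeR interaction given above, with an estimate of -7.43 ± 4.82 (SE) on the log2 scale, and did not pass. With 1 knockout pair, genotype and the 2 libraries cannot be told apart.

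In the tumors that entered no pair, 10 of the 31 genes at least 2-fold higher in every pair lay above every normal library in both: 5730559C18Rik, Fst, Igdcc4, Kif5c, Ly6d, Msantd3, Mst1r, Psrc1, Scd3 and Sprr1a. Scd3, a stearoyl desaturase with close copies, stood at 4.44 CPM in wild-type tumor 1 and 3.27 CPM in knockout tumor 2, on the scale over 8 libraries, against 0.143, 0.174 and 0.924 CPM in the normals.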

How the results depend on the processing

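EdgeR, limma-voom and DESeq2 without a block called 0 genes under each alternative except leaving out wild-type pair 2, which gave 6 higher. Leaving out single pairs thus gave 0 to 6 higher and 0 to 0 lower. With wild-type pair 2 or wild-type pair 3 left out, the genotype term was also the pair term, unlike in the main fit. The replicate block gave 0 in edgeR and, in DESeq2 (chosen after seeing the data), 9 higher, all among the 31 2-fold genes. Genes higher in all pairs numbered 1970, and 3086 to 3934 with only 2 pairs required; lower genes numbered 1807, and 3049 to 3794. The 31 genes at least 2-fold higher became 16 at a mean of at least 5 CPM, 18 with the deposited FPKM, and 57 to 107 with 2 pairs. The 3 lower ones became 9 with no filter, 1 at a mean of at least 5 CPM, and 5 to 137 with 2 pairs, the last without wild-type pair 3. Of genes moving 1 way in all pairs 52.2% were higher, and 46.4% with DESeq2 size factors. Library totals moved the median of all genes in wild-type pair 2 to -0.38. No fitted fold of a gene checked (50) changed sign, list medians moved beyond the pair spread in 15 recomputed values, and interferon-induced genes with library totals had 8 higher and 0 lower. Scarce genes are limited by depth: counts of 0 to 3 stand on the normal side of several 2-fold genes.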
